A study of Mus musculus with 12 samples.

Results

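The Trav8 family of mouse Tcra, the gene of the T cell receptor alpha chain, was read here as every row whose name matched TRAV8-n or TRAV8D-n. This rule gave 4 rows, Trav8d-1, Trav8d-2, Trav8-1 and Trav8-2, of the 85 Trav segments listed in any table and the 79 listed in all 12. With 43 Traj partners each, the family made 172 of the 3397 Trav and Traj pairs shared by all tables. The suffix d marks a copy in the duplicated stretch of the V alpha array. Trav8d-1 and Trav8d-2 were therefore set against Trav8-1 and Trav8-2, their counterparts by name.

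The tables gave the share of Tcra transcripts taken by each pair of segments in thymocytes positive for both CD4 and CD8 (DP cells) and negative for CD3e in the sort. The 2 genotypes were homozygous wild type (WT) and homozygous DPASEKO (KO), a deletion of DPASE, known as a regulatory element of the Rag1 and Rag2 locus. Each genotype had 2 steady-state libraries and, after 1 mg of tamoxifen, 2 libraries taken 24 h and 2 taken 48 h later, from mice aged 4 to 6 weeks. The tamoxifen libraries held ZsGreen+ cells only. All mice, WT included, carried TcrdCreER, whose Tcra-Tcrd loci come from strain 129 on a C57BL/6J background. The labels give the ZsGreen reporter at Rosa26 as 1 copy under genotype and as 2 copies under strain. Whether the 2 libraries of a group come from separate mice is not stated, so p-values cover the spread between libraries only, and that spread may be technical.

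A Tcra gene is assembled in DP cells by joining a V segment (Trav) to a J segment (Traj). The first joins use Trav segments close to the Jα array and Traj segments at its 5′ end, which carry the highest numbers. Later joins on the same chromosome replace them with Trav segments lying farther away and Traj segments nearer to the 3′ end. A lower mean partner number thus means partners nearer to the 3′ end of the array.

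All 4 rows matched a gene in GENCODE M21 on chromosome 14 of GRCm38, plus strand. Trav8d-1 (52778447 to 52778995) lies 1379 kb from Traj58, the most 5′ Traj of the tables, and Trav8d-2 (53042428 to 53042891) lies 1115 kb from it. Trav8-1 (53469756 to 53470232) lies 688 kb and Trav8-2 (53738375 to 53738838) 419 kb away. Both D copies are separated from their counterparts by nearly the same length, 691 kb for the first pair and 696 kb for the second, against 685 to 707 kb over the 32 name-matched pairs with positions. The annotation classes the first 3 as functional V genes (TR_V_gene) and Trav8-2 as a pseudogene (TR_V_pseudogene) in the C57BL/6J reference. Its leader exon starts with the codon CTG, where the other 3 start with ATG. The V exons of the family are printed 5′ to 3′ because how alike the copies are bears on every comparison between their rows. Capitals mark the bases at which a segment and its counterpart differ.
Trav8d-1 (chr14:52778711-52778995): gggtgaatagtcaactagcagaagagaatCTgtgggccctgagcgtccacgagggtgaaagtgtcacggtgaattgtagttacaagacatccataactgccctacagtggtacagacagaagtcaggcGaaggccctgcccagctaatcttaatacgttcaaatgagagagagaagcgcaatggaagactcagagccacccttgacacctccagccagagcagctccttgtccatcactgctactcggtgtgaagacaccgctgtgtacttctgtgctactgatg
Trav8-1 (chr14:53469948-53470232): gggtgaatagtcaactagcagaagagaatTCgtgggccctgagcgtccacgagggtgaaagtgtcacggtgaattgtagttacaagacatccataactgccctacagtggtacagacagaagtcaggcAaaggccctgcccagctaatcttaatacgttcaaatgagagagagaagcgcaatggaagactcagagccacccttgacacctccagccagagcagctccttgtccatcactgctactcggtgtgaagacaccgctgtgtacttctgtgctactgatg
Trav8d-2 (chr14:53042607-53042891): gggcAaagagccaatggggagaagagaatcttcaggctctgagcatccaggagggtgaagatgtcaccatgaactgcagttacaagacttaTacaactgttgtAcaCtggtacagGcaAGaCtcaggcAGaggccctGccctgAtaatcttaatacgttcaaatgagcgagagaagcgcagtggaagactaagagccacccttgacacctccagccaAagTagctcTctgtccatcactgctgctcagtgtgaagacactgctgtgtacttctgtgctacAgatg
Trav8-2 (chr14:53738554-53738838): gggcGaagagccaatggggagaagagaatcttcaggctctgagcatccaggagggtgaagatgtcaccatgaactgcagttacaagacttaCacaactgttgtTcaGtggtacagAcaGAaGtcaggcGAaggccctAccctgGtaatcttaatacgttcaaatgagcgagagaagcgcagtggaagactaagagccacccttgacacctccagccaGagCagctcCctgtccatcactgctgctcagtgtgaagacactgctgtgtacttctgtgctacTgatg

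Each V exon has 285 bases, of which 234 are the same in all 4 members. Trav8d-1 and Trav8-1 differ at 3 positions counted from the first base of the exon, C30T, T31C and G129A (the base of Trav8d-1 first), and their last 156 bases, which adjoin the Traj segment in a transcript, are identical. Trav8d-2 and Trav8-2 differ at 16 positions, 4 of them in the last 68 bases (A218G, T221C, T227C and A281T). No V exon holds an in-frame stop codon. By these reference sequences, rows of the first pair can be told apart only by reads that reach these 3 positions or the leader. How the authors assigned reads to near-identical copies is not given in the sources used here. Another annotated gene, Trav8n-2, has no row under that name and was not analysed here. It differs from Trav8-2 at 15 V exon positions and from Trav8d-2 at 24.

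The tables were of 2 kinds. The fractions of 8 tables summed to 0.995 to 0.998, with 1.57% to 14.9% of pairs listed at 0. The remaining 4, replicate 2 of either genotype 24 h and 48 h after tamoxifen, summed to 1.97 to 1.99, with 43.5% to 56.7% of pairs at 0. Each value below was divided by its table's own total. Read depth is unknown, so no counting interval was computed; the lowest value above 0 was 0.000336% to 0.000853% in tables of the first kind and 0.00401% to 0.00937% in those of the second. Of 43 possible Traj partners, Trav8d-1 had 39 to 43 above 0 in the 8 tables and 10 to 16 in the 4. The pair Trav11 and Traj18, which marks invariant NKT cells, held at most 0.0462%, and Trav1 with Traj33, which marks MAIT cells, at most 0.0503% of a table. No row measures the deleted element or the Rag genes, which leaves the labelled genotypes unchecked.

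The family held 2.86% to 5.03% of the repertoire. Trav8-1 was the largest of the 4 at steady state, at 1.67% and 1.85% in WT and 1.88% and 1.96% in KO. Trav8-2 followed with 1.14% and 1.03% in WT and 1.62% and 1.36% in KO, where KO libraries lay above WT libraries. Trav8d-1 held 0.933% and 1.02% in WT and 0.837% and 0.793% in KO, again without overlap between genotypes. Trav8d-2 was the smallest, at 0.586% and 0.706% in WT and 0.600% and 0.717% in KO, and its groups overlapped.

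At 24 h the order changed, and Trav8-2 was the largest of the 4 in every library. It held 2.14% and 1.84% in WT and 2.49% and 2.00% in KO. Trav8d-2 stood at 0.317% and 0.648% in WT and 0.287% and 0.661% in KO, so the libraries numbered 1 were low and those numbered 2 were at steady-state levels. At 48 h Trav8-2 was back at 1.11% and 0.791% in WT and at 1.77% and 1.11% in KO. Trav8d-2 then stood at 0.607% and 1.15% in WT and 0.465% and 1.21% in KO.

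The first pair of copies split by table rather than by genotype or time. Trav8-1 held 1.47% to 1.96% in the 8 tables that sum to nearly 1 and 0.557% to 0.727% in the other 4. Trav8d-1 held 0.744% to 1.02% in the 8 and 0.119% to 0.227% in the 4. For neither row did the ranges overlap. Trav8d-2 was higher in the 4 tables than in the libraries numbered 1 of the same samplings, with ranges of 0.648% to 1.21% in the 4 and 0.287% to 0.717% in the 8, while the ranges of Trav8-2 overlapped widely (0.791% to 2.00% and 1.03% to 2.49%). The part of the share of pairs listed at 0, which is also higher in these 4 tables, was not tested.

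**Figure D1:**
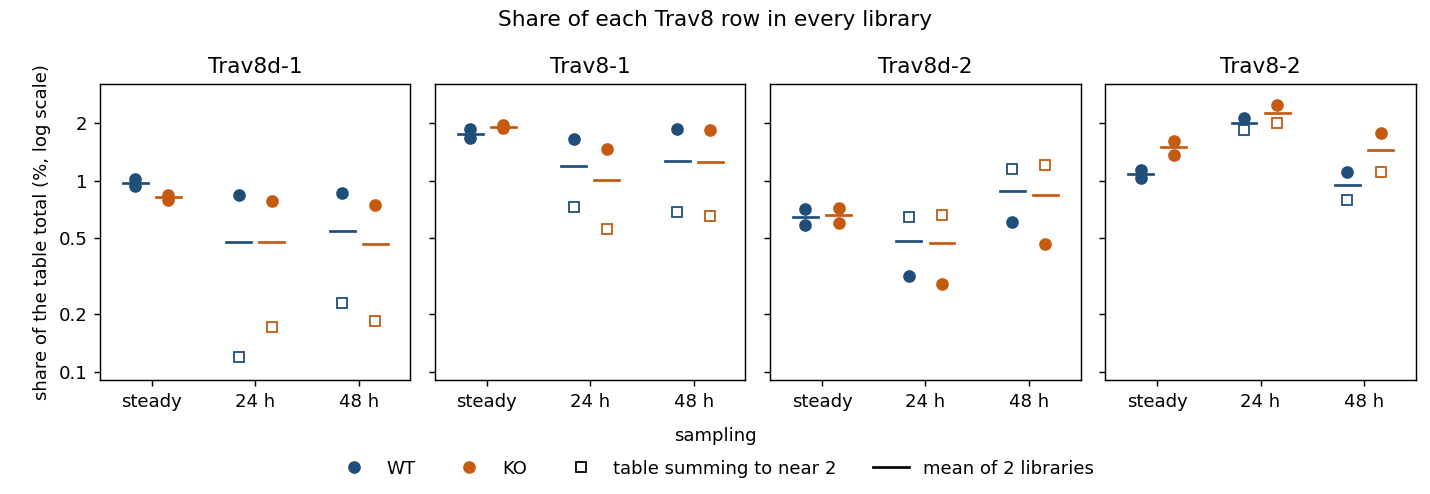
Share of the table total (%, log scale) of each Trav8 row by sampling, with WT in blue and KO in orange. Circles are libraries whose fractions sum to nearly 1, open squares the 4 libraries summing to nearly 2, and bars the mean of 2 libraries; Trav8-2 is at its highest at 24 h, and open squares lie far below circles for Trav8d-1 and Trav8-1.

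Each D copy was used less than its counterpart. Trav8d-1 was below Trav8-1 in 12 of 12 libraries, by a log2 ratio of -1.32 averaged over the 6 groups (SE 0.15, adjusted p = 2.26e-05, limma). Its share was 0.406 to 0.559 of that of Trav8-1 at steady state and 0.164 to 0.533 of it after tamoxifen. Trav8d-2 was below Trav8-2 in 10 of 12 libraries, by a log2 ratio of -1.23 (SE 0.23, adjusted p = 0.000714). Both exceptions were the 48 h libraries numbered 2, with ratios of 1.46 in WT and 1.09 in KO. This direction is common to the locus: of the 33 name-matched pairs, 100% passed the same test and 30 had the D copy lower, with a median log2 ratio of -1.20. The Trav8 pairs stood 14th and 16th from the lowest, between Trav11d (-2.75) and Trav12d-3 (-2.69) at one end and Trav7d-2 (2.85) and Trav6d-3 (1.05) at the other.

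**Figure D2:**
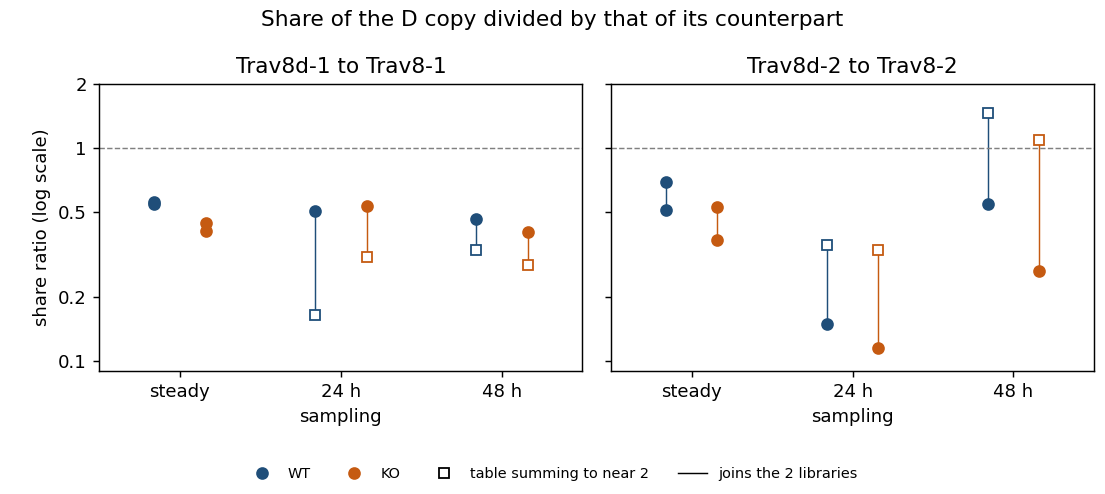
Share of the D copy divided by the share of its counterpart (log scale) for both Trav8 pairs, by sampling and genotype, 2 libraries each joined by a line. The dashed line marks equal shares; the Trav8d-1 ratios stay below it in every library and the Trav8d-2 ratios cross it at 48 h in the 2 tables summing to nearly 2.

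Between genotypes, the share of Trav8-2 was higher in KO than in WT, and the other 3 shares did not pass the test in either fit. The KO library was above the WT library of the same number in 6 of 6 pairs for Trav8-2. Averaged over the 3 samplings the difference was 0.40 on the log2(percent + 0.01) scale (adjusted p = 0.841 over 79 Trav segments, limma with 1 mean per group). Same-numbered libraries of a sampling deviated alike from their group means, a pairing inferred from these data. With the number as a block within sampling the same difference passed (SE 0.07, adjusted p = 0.0163). At 48 h it was 0.57 (adjusted p = 0.979 without and 0.031 with the block), at steady state 0.45 (0.999 and 0.165) and at 24 h 0.17 (0.97 and 0.428). Without the block 0% of the 79 segments were called for the mean of the samplings, with 5 under an unadjusted p of 0.05. With it 43% were called for the mean and 35.4% at 48 h, so a call of 1 of 4 members is no more frequent than among all segments.

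The mean differences of the other members were -0.07 for Trav8-1, -0.10 for Trav8d-1 and -0.06 for Trav8d-2, with block SEs of 0.07, 0.10 and 0.08. Over all 79 segments the median was -0.10. Among the 31 other D copies it was -0.30, with 14 lower and 0 higher under the block, and among their 31 counterparts it was 0.11, with 8 higher and 1 lower. The summed share of the family was higher in KO in 6 of 6 same-numbered pairs, by 0.275 percentage points on average. An exact two-sided permutation of genotype within sampling gave p = 0.509, or 0.556 adjusted over 10 such tests. This average is near 0 (-0.00113) without KO replicate 1 at 48 h.

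At steady state the D share of the family was 36.3% ± 1.65 (SD, n = 2) in WT and 30.2% ± 1.52 in KO. It was 23.1% ± 0.222 and 22.9% ± 2.36 at 24 h and 40.7% ± 10.7 and 34.7% ± 13.5 at 48 h. Its mean KO minus WT difference was -4.11 percentage points, lower in KO in 5 of 6 pairs (exact permutation p = 0.324, adjusted 0.476). It was -7.29 without KO replicate 2 and -0.927 without KO replicate 1 at 48 h. For Trav8d-2 against Trav8-2 the KO minus WT difference of the log2 ratio was -0.46 on average, past the threshold only with the block (adjusted p = 0.499 without and 0.00275 with it). It was -0.80 without KO replicate 2 and -0.12 without KO replicate 1 at 48 h. For Trav8d-1 against Trav8-1 it was -0.04 (0.933 and 0.795). Over the 33 pairs, 0% were called without the block, with 7 under an unadjusted p of 0.05, and 69.7% with it, all lower in KO. At 48 h the second pair differed by -0.73 (0.583 and 0.00681), against 54.5% of pairs called with the block; without KO replicate 1 the sign turned (0.29), and without KO replicate 2 it was -1.74. In the blocked fit of ratios limma estimated 125 prior degrees of freedom beside 3 residual ones, so each pair was tested almost entirely against the spread shared by the 33 pairs.

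With time after tamoxifen, Trav8-2 fell and Trav8d-2 rose between 24 h and 48 h in both genotypes, in the fit with the block. The log2 change of Trav8-2 was -1.07 in WT and -0.67 in KO (adjusted p = 0.00142 and 0.00601 with the block, 0.156 and 0.456 without). Trav8d-2 rose by 0.87 and 0.77 (0.0036 and 0.00814 with, 0.502 and 0.776 without). The size of these changes varied with the libraries kept in the fit without the block. For Trav8d-2 it was 0.36 without WT replicate 1 at 24 h and 1.37 without replicate 2, and 0.09 without KO replicate 2 at 48 h and 1.45 without replicate 1. For Trav8-2 in KO it was -0.34 without replicate 2 and -1.0 without replicate 1 at 48 h. For Trav8-1 the changes were 0.04 and 0.28, and for Trav8d-1 0.46 and 0.02, and neither passed in either fit. Without the block 1.27% of segments were called in either genotype, with 13 in WT and 11 in KO under an unadjusted p of 0.05. With the block 59.5% were called in WT and 45.6% in KO, and 22 of the 31 other D copies rose in WT. The difference of these changes between genotypes passed for no member (adjusted p from 0.211 to 0.764 with the block). The log2 ratio of Trav8d-2 to Trav8-2 rose by 1.94 in WT (adjusted p = 0.107 without and 1.03e-11 with the block), beside 27.3% and 69.7% of the 33 pairs called. It was 1.25 without WT replicate 2 and 2.64 without WT replicate 1 at 48 h.

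The labelled cells at 24 h were also compared with steady state. Here the replicate block and the kind of table cannot be told apart, so a term for tables summing to nearly 2 was used. No steady-state table is of that kind. The term thus sets the 24 h level close to that of the tables summing to nearly 1, which at 24 h are replicate 1 only. With it Trav8-2 was higher at 24 h by 1.08 in WT and 0.80 in KO (adjusted p = 0.00185 and 0.00649), and the differences of Trav8d-2 were -1.05 and -1.14 (0.00218 and 0.00161). Trav8-1 (0.01 and -0.39) and Trav8d-1 (-0.49 and -0.04) did not pass. This fit called 55.7% of the 79 segments in WT and 51.9% in KO. The fit without the term called no member, with adjusted p from 0.153 to 0.62. Its differences were 0.87 in WT and 0.59 in KO for Trav8-2, and -0.58 in KO for Trav8d-2. Replicate 2 at 24 h held 0.648% of Trav8d-2 in WT and 0.661% in KO, within the steady-state values of each genotype.

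The Traj partners also differed between the members. At steady state in WT, Trav8d-2 had the lowest mean partner number, 23.3 and 24.1 in the 2 libraries. Trav8d-1 had 27.8 and 26.3, Trav8-1 30.1 and 28.8, and Trav8-2 42.1 and 41.8. No WT steady-state library of one member reached the values of another. Over all 12 libraries, Trav8d-2 was below each of the other 3 in 12 of 12. Trav8d-1 minus Trav8d-2 was 3.91 Traj numbers, Trav8d-2 minus Trav8-1 was -3.13 and Trav8d-2 minus Trav8-2 was -10.6 (exact sign-flip permutation over libraries, two-sided, adjusted p = 0.00117 over 12 comparisons, the smallest it can give being 0.000488 before adjustment). Over the 12 libraries together, Trav8d-1 and Trav8-1 did not differ beyond their spread (0.784, SD 2.18, adjusted p = 0.302 in the same test). This spread includes differences between groups: at steady state the gap was -2.40 (SD 0.204, n = 2) in WT and 1.28 (SD 0.943) in KO.

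This order follows position only in part. Trav8-2, the member closest to the Jα array, has the highest numbers, and Trav8d-1, the farthest, lies above Trav8d-2, which is 264 kb closer. Across the 77 positioned segments, Spearman's rho between distance to Traj58 and mean partner number was -0.819 and -0.830 in the WT steady-state libraries, a correlation across genes of 1 library that are not independent replicates. Ranked from the highest number there, Trav8-2 stood 8th and 9th, Trav8-1 35th and 34th, Trav8d-1 48th in both and Trav8d-2 75th and 62nd.

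The windows of the Jα array give the same picture in shares of each row. Trav8-2 drew 60.3% to 81.2% of its transcripts from the 5′ window (Traj58 to Traj42) in every library, and 62.0% ± 0.0108 (SD, n = 2) in WT at steady state. Trav8d-2 drew 14.1% ± 2.89 there and 48.1% ± 0.725 from the 3′ window (Traj21 to Traj2). Trav8d-1 drew 25.6% ± 2.00 from the 5′ and 43.4% ± 3.34 from the 3′ window. Trav8-1 had the same 5′ share, 25.4% ± 2.37, and a lower 3′ share of 32.7% ± 1.18, with 41.9% ± 1.19 in the middle (Traj40 to Traj22). On the most 3′ segments (Traj11 to Traj2) Trav8d-1 had 22.1% ± 1.12 and Trav8-1 13.4% ± 1.49, without overlap between these near-identical copies. The partner profiles of these copies overlapped by 85.4% to 90.3% in the 8 tables, counted as the sum over Traj of the smaller share. Those of Trav8d-2 and Trav8-2 overlapped by 47.0% to 81.5%.

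**Figure D3:**
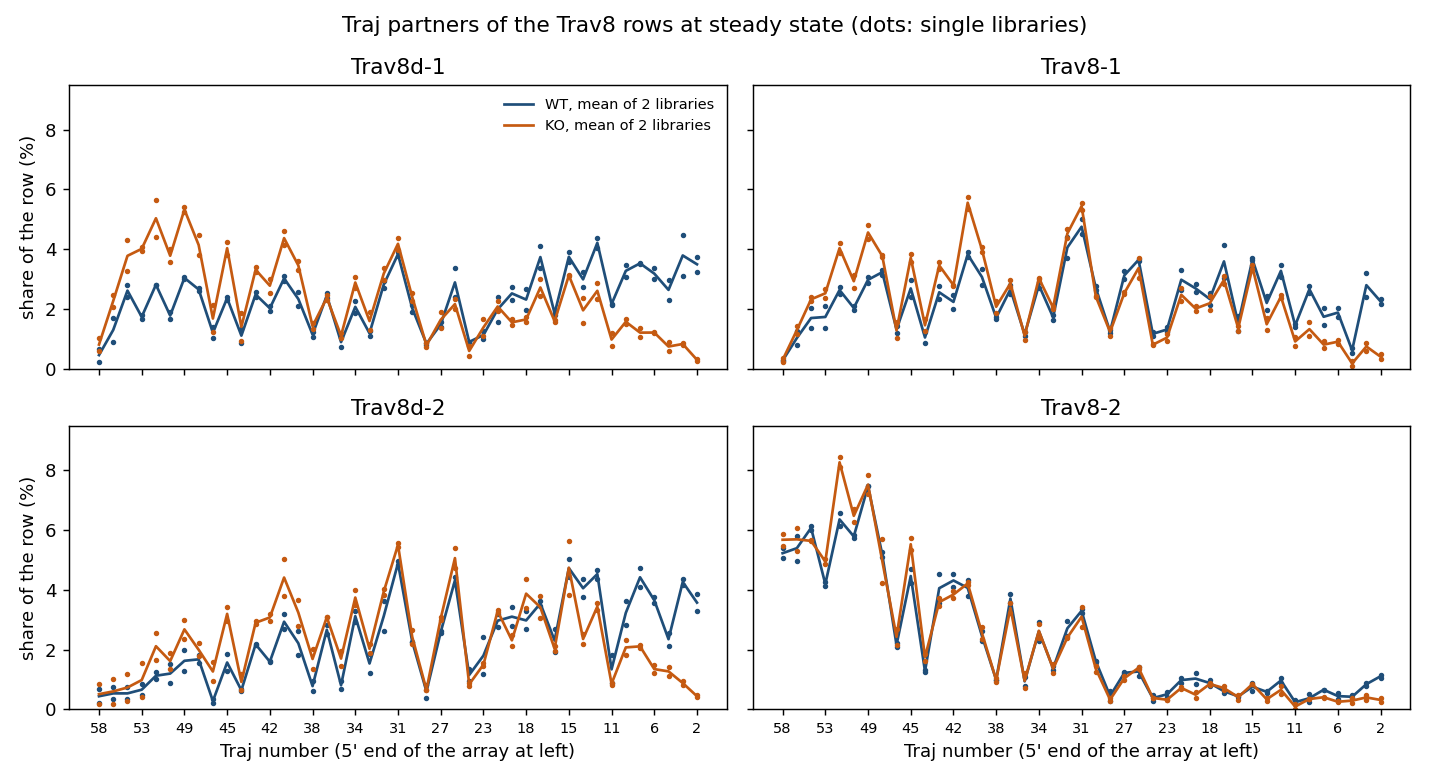
Share of each row's transcripts (%) by Traj partner at steady state, from the 5′ end of the Jα array at left to the 3′ end at right. Lines are the mean of 2 libraries and dots the libraries, WT in blue and KO in orange; Trav8-2 is concentrated at the 5′ end and the KO lines lie below the WT lines at the 3′ end.

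In KO cells the mean partner number averaged over samplings was higher for all 4 members, and the difference passed for 3 of them. At steady state Trav8d-1 had mean partner numbers of 36.4 and 34.3 with the knockout, against 27.8 and 26.3 in WT. Trav8d-2 had 28.8 and 30.2 against 23.3 and 24.1, and Trav8-1 34.4 and 33.7 against 30.1 and 28.8. For Trav8-2 the KO libraries stood at 43.8 and 43.3 and the WT libraries at 42.1 and 41.8. Genotypes did not overlap for any member at steady state. All 79 segments had a higher mean in KO there, by 0.496 to 8.71, and how many had no overlap was not counted.

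Averaged over the samplings, the mean partner number was higher in KO by 6.07 for Trav8d-2 (SE 1.06, adjusted p = 0.000469, limma), 5.74 for Trav8d-1 (SE 1.21, adjusted p = 0.00133) and 4.90 for Trav8-1 (SE 0.95, adjusted p = 0.000825). For Trav8-2 the difference of 1.39 (SE 0.84) did not pass (adjusted p = 0.126), and it was the smallest of the 79. It was 2.01 when the 4 tables summing to nearly 2 were left out, and 2.21 without WT replicate 2 at 48 h. Both fits leave 1 library in at least 1 group. The shift is general: 93.7% of segments were called, all higher in KO, with a median of 4.71. All 31 other D copies were called, with a median of 6.29, and 30 of their 31 counterparts, with a median of 3.63. At family level the mean partner number was higher in KO by 4.83, in 6 of 6 pairs; the exact permutation p of 0.00926 is the smallest that test can give, and it was 0.0926 after adjustment over 10 tests.

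By sampling, the steady-state difference was 8.31 for Trav8d-1, 5.81 for Trav8d-2, 4.63 for Trav8-1 and 1.62 for Trav8-2. The first 3 passed (adjusted p = 0.00965, 0.0257 and 0.0388), with 48.1% of segments called. At 24 h only Trav8d-2 passed (5.60, adjusted p = 0.0295), with 46.8% called. With the block Trav8-1 passed too (4.22, adjusted p = 0.0565 without and 0.0108 with it), with 68.4% called. At 48 h Trav8d-2 (6.81, adjusted p = 0.0086) and Trav8-1 (5.85, 0.0107) passed, with 69.6% called. Trav8d-1 at 48 h (4.50, 0.0768) rests in replicate 2 on 16 Traj partners above 0 in WT and 15 in KO, and its size depends on 1 library. It was 0.828 without WT replicate 1, 8.18 without WT replicate 2 and 9.61 without the 4 tables summing to nearly 2. That last fit sets 1 library against 1 at 48 h, with the spread taken from the steady-state libraries alone. Trav8-2 at 48 h was -0.66, with WT libraries at 41.5 and 46.4 and KO libraries at 43.5 and 43.2. This difference was 1.79 without WT replicate 2 and -3.10 without WT replicate 1.

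Calls within a sampling were often lost when 1 group was left with a single library, while the differences at steady state changed little. Without any 1 of the 4 steady-state libraries, the calls of Trav8d-2 (5.10 to 6.53, adjusted p from 0.0787 to 0.109) and Trav8-1 (3.99 to 5.27, 0.0756 to 0.184) were lost. That of Trav8d-1 was lost without KO replicate 1 or WT replicate 2 of that sampling (7.29 and 7.53, adjusted p = 0.0787 and 0.0879). The 24 h call of Trav8d-2 was lost without KO replicate 2 or either WT library (0.0664 to 0.162), and the 48 h calls of Trav8d-2 and Trav8-1 without WT replicate 1 (3.78 and 4.50 in size, adjusted p = 0.0626 and 0.0766). The 48 h difference of Trav8d-2 was 9.84 without WT replicate 2. The differences themselves kept their sign in each of these fits.

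**Figure D4:**
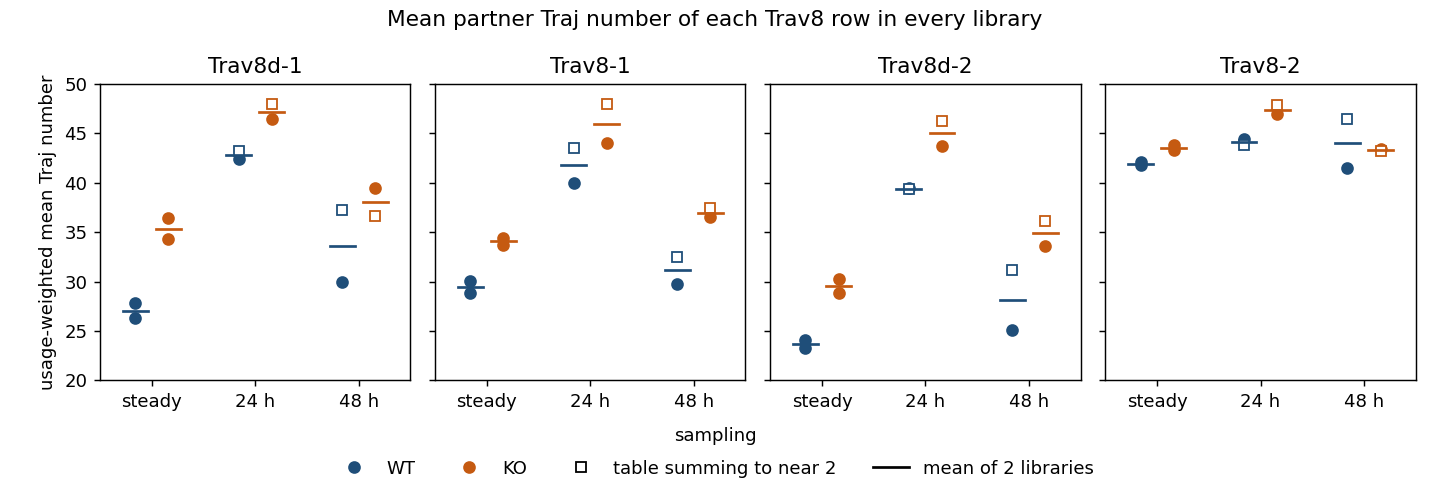
Usage-weighted mean Traj number of the partners of each Trav8 row in every library, with symbols as in the plot of shares. Values of Trav8d-1, Trav8d-2 and Trav8-1 lie highest at 24 h, and KO lies above WT for them at steady state and 24 h, while Trav8-2 stays between 41.5 and 47.8 in all 12 libraries.

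Labelled cells at 24 h had partners closer to the 5′ end than the steady-state population. In WT the mean number was higher by 15.7 for both D copies (adjusted p = 4.60e-05 for Trav8d-1 and 1.79e-05 for Trav8d-2) and by 12.3 for Trav8-1 (4.69e-05), and Trav8-2 differed by 2.25 (0.16). In KO it was higher by 15.5 for Trav8d-2, 11.8 for Trav8d-1, 11.9 for Trav8-1 and 3.85 for Trav8-2 (adjusted p = 0.026 for the last, which was 0.0538 with a term for the kind of table and 0.0657 to 0.104 without KO replicate 2 at 24 h or either steady-state KO library). Of all segments 89.9% were called in WT and 94.9% in KO, all higher.

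From 24 h to 48 h the numbers fell again. In WT the change was -11.3 for Trav8d-2, -10.6 for Trav8-1 and -9.22 for Trav8d-1 (adjusted p = 0.000227, 0.000168 and 0.00204), and -0.17 for Trav8-2 (0.908). That of Trav8d-1 was -5.54 without WT replicate 1 at 48 h and -12.9 without replicate 2. In KO the change was -10.1, -9.0 and -9.11 for Trav8d-2, Trav8-1 and Trav8d-1, and -4.05 for Trav8-2 (adjusted p = 0.0235, or 0.0652 to 0.0942 without KO replicate 2 at 24 h or either KO library at 48 h). Calls reached 91.1% of segments in WT and 82.3% in KO, all lower at 48 h. The difference between genotypes in this change passed for no member (adjusted p = 0.351 for Trav8-2, the lowest).

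The gap between a D copy and its counterpart behaved differently in the 2 pairs. For Trav8d-2 minus Trav8-2 the steady-state gap in mean partner number was -18.8 and -17.6 in WT and -15.0 and -13.0 in KO. At 24 h it was -5.00 and -4.53 in WT and -3.17 and -1.60 in KO. The 48 h libraries had -16.5 and -15.3 in WT and -9.81 and -7.03 in KO. KO and WT did not overlap at any sampling. In how many of the 33 name-matched pairs this held was not counted, and averaged over samplings 0 of them had a KO minus WT difference below 0. For Trav8d-1 minus Trav8-1 the values ran from -2.55 to 4.77, with WT at -2.26 and -2.55 and KO at 1.95 and 0.614 at steady state. The pairs beside them on the chromosome differed likewise in WT at steady state. Trav7d-4 and Trav9d-1, beside the first pair, had mean gaps of -0.80 and -1.82 to their counterparts. Trav13d-3 and Trav16d, beside the second pair, had -14.7 and -13.9.

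Over the 6 groups the gap was -10.6 for the second pair (SE 0.39, adjusted p = 2.32e-09, limma) and 0.784 for the first (SE 0.54, adjusted p = 0.214). Of the 33 name-matched pairs 66.7% were called. Trav8d-2 and Trav8-2 had the most negative gap, followed by Trav14d-3 and Trav14-3 (-9.81, SE 0.45); whether these differ was not tested. The first pair stood 31st, with Trav7d-4 and Trav7-4 at the other end (1.89). When the 4 tables summing to nearly 2 were left out, the gap of the first pair was 1.14. The spread of that fit rests on the steady-state libraries alone.

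The gap of the second pair was narrower in KO. Averaged over samplings the difference was 4.68 (SE 0.78, adjusted p = 0.00392), the largest of the 33, beside 54.5% of pairs called, all in this direction, and a median of 2.67. The next was Trav5d-4 and Trav5-4 with 4.19 (SE 0.93). At 48 h it was 7.47 (adjusted p = 0.0054, 36.4% called), at steady state 4.20 (0.0505 without and 0.0321 with the block, which called 42.4%) and at 24 h 2.37 (0.713). The first pair differed by 0.837 on average, the smallest of the 33 (adjusted p = 0.454). At steady state it differed by 3.68 (adjusted p = 0.132), and this passed when only the 4 steady-state libraries were fitted (adjusted p = 0.0078).

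Between steady state and 24 h the gap of the second pair closed by 13.4 in WT (adjusted p = 1.52e-05, 75.8% of pairs called) and 11.6 in KO (8.75e-05, 57.6% called). From 24 h to 48 h it opened again, by -11.1 in WT (0.000217, 57.6% called) and -6.03 in KO (0.0074, 24.2% called; 0.0706 without KO replicate 2 at 24 h). The first pair passed in none of these contrasts. In the plot of gaps against position, the counterpart of the first pair stands at 688 kb from Traj58 and that of the second at 419 kb; a relation of gap to position was not tested.

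**Figure D5:**
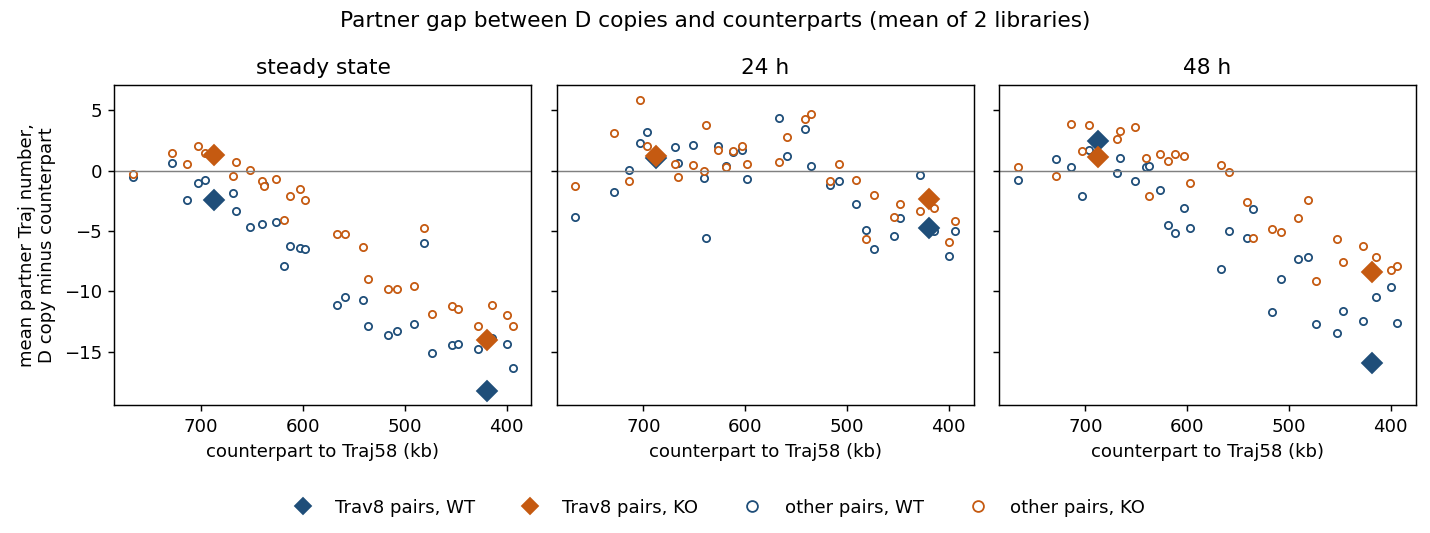
Mean partner Traj number of each D copy minus that of its counterpart (mean of 2 libraries), against the distance of the counterpart from Traj58 (kb, decreasing to the right), for the 32 pairs with positions. Diamonds are the Trav8 pairs, circles the others, WT in blue and KO in orange; the second Trav8 pair is the lowest point of both genotypes at steady state (-18.2 in WT, -14.0 in KO).

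Single pairs of a Trav8 row and a Traj segment were tested last. Between steady state and 24 h in WT, 21 of the 172 pairs were called, or 12.2% against 13.1% of all pairs, and 19 of them fell, all in the 3′ window, where 365 of the 404 falling pairs of all segments lay. With the block, which called 32.6% of member pairs and 31.1% of all, 34 member pairs fell in the 3′ and 13 in the middle window, and 7 rose in the 5′ and 2 in the middle window. When the 4 tables summing to nearly 2 were left out, 62 fell, 44 of them in the 3′ window, and 42 rose, 32 of them in the 5′ window. The 19 were 9 pairs of Trav8d-1, 7 of Trav8d-2 and 3 of Trav8-1. The pair of Trav8d-2 and Traj7 held 0.0279% and 0.0290% in WT at steady state and was at 0.000853% and listed at 0 at 24 h (log2 change -1.88, SE 0.25, adjusted p = 0.0061). The pair of Trav8-1 and Traj6 went from 0.0287% and 0.0378% to 0.00427% and 0 (log2 change -1.85, SE 0.27, adjusted p = 0.00753). Trav8d-1 with Traj2, the most 3′ segment, had 0.0350% and 0.0330% at steady state, and 0.00341% and 0 at 24 h (-1.92, adjusted p = 0.0188). The value of 0.000853% is the lowest above 0 in its library, and all 24 h values of these pairs lie below the pseudocount of 0.01%. The sizes of these log2 changes thus depend on the pseudocount. With one of 0.001 only 1 member pair was called in this contrast.

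Both pairs that rose in that contrast were Trav8-1 with Traj56 (1.18, adjusted p = 0.0484) and Trav8-2 with Traj39 (0.87, 0.0413). In KO 5 member pairs fell and 0 rose, or 2.91% against 5.59% of all pairs, with Trav8d-2 and Traj26 (-1.95, adjusted p = 0.0309) first by adjusted p. With the block 24 fell in the 3′, 26 in the middle and 2 in the 5′ window and 7 rose in KO, beside 31.2% of all pairs called. From 24 h to 48 h in WT, 6 rose and 1 fell, or 4.07% against 6.8%. Trav8-1 with Traj6 rose by 2.07 (adjusted p = 0.0231) and Trav8-1 with Traj56 fell by 1.36 (0.0459). With the block this count was 35 of 172, beside 21.4% of all pairs, and without 1 library it ran from 0 to 18; for steady state against 24 h it ran from 0 (without WT replicate 2 at 24 h) to 38. Between genotypes only Trav8-1 with Traj6 was called, with a mean difference of -0.87 (SE 0.15, adjusted p = 0.0483), beside 1.09% of all pairs. It held 0.0181% and 0.0164% in KO at steady state against 0.0287% and 0.0378% in WT, and 0.00383% and 0.00721% against 0.0339% and 0.0473% at 48 h. The KO value of 0.00721% is the lowest above 0 in its library. With the block Trav8-1 and Traj9 was called too (-0.87, adjusted p = 0.041), beside 2.24% of all pairs.

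By mean share over the libraries, the leading pairs of Trav8-2 were those with Traj49 (0.142%), Traj52 (0.128%) and Traj57 (0.105%), all in the 5′ window. Trav8-1 led with Traj40 (0.0741%), Traj49 (0.0721%) and Traj31 (0.0697%). Trav8d-1 led with Traj49 (0.0348%), Traj52 (0.0342%) and Traj48 (0.0297%), and Trav8d-2 with Traj40 (0.0336%), Traj31 (0.0331%) and Traj32 (0.0329%), all in the middle window.

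The neighbours on the chromosome were taken as the nearest 2 segments on each side. For the mean partner number, 4 of 4 neighbours of each member were called as higher in KO, near the 93.7% of all segments, and those of Trav8-2 were called although Trav8-2 itself was not. Their median differences were 6.07 around Trav8d-1, 5.21 around Trav8d-2, 4.58 around Trav8-1 and 3.03 around Trav8-2. The neighbours of Trav8-2 ranged from 1.62 to 5.05. Trav8-2 itself had 1.39, or 2.21 without WT replicate 2 at 48 h. For the share between 24 h and 48 h in WT with the block, 3 of 4 neighbours of Trav8d-2 rose (median 0.86) and 3 of 4 neighbours of Trav8-2 fell (median -0.90). Around Trav8-1 and Trav8d-1, 2 and 1 of 4 rose. In this fit 32 of the 79 segments rose and 15 fell (59.5% called), and without the block 0 of 4 neighbours of each member were called. Whether members resemble their neighbours more than other segments was not tested.

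The segments whose log2 share followed each member most closely over the 12 libraries differed between members. They were Trav17, Trav16 and Trav20 for Trav8-2 (Pearson's r of 0.944, 0.889 and 0.872) and Trav13d-4, Trav9d-3 and Trav3-1 for Trav8d-2 (0.953, 0.943 and 0.866). For Trav8-1 they were Trav11, Trav6-6 and Trav6-5 (0.994, 0.986 and 0.979), and for Trav8d-1 Trav6-5, Trav6-6 and Trav7-3 (0.983, 0.972 and 0.972). In the 8 tables summing to nearly 1, the values for Trav8-2 and Trav8d-2 were 0.915 to 0.978. Those for Trav8-1 were 0.917, 0.762 and 0.766 in the order given. Trav8d-1 gave 0.276 with Trav6-5, -0.138 with Trav6-6 and 0.476 with Trav7-3. The likeness of Trav8d-1 to these segments over 12 libraries thus rests largely on the other 4 tables. Between copies, r was 0.958 for Trav8d-1 and Trav8-1 over the 12 libraries and 0.111 over the 8, and -0.789 and -0.892 for Trav8d-2 and Trav8-2. All points of a correlation share the scaling of their table, and each group gave 2 of them.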

How the data were processed

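Tcra transcripts of sorted CD3e-negative DP thymocytes were amplified by template-switch RACE with a Trac primer, per the labels' protocols. The deposited values are fractions of the repertoire per Trav and Traj pair, 1 table per library. Not given in the sources used here were the aligner, the genome build, the unit counted and why 4 tables sum to nearly 2. Read depth is unknown.

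Each fraction was divided by its table's total and given in percent. The 79 Trav segments and 3397 pairs listed in all 12 tables were tested as log2(percent + 0.01), which understates the change of low shares; the 6 segments listed in only some tables were not tested. The mean partner number is the usage-weighted mean Traj number. Mean partner numbers, log2 ratios of D copy to counterpart and partner gaps (33 name-matched pairs) were fitted likewise with limma 3.58.1 in R 4.3.3, with 1 mean for each of the 6 groups, which leaves 6 residual degrees of freedom. P-values were adjusted over each whole table (Benjamini-Hochberg, threshold 0.05). Single values per library were tested by exact two-sided permutation of genotype within sampling (216 arrangements) and of time within genotype (36, smallest p 0.0556). With 2 libraries a group, p could not fall under 0.333 within 1 sampling, and no such test was made. The sign-flip test over 12 libraries was added after seeing the data.

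The labels number the replicates, and a pairing by number was inferred from these data. Deviations of same-numbered libraries from their group means correlated at 0.723, 0.927 and 0.931 over Trav segments at steady state, 24 h and 48 h. Over pairs they correlated at 0.464, 0.652 and 0.564. The fit with the replicate number as a block within sampling (3 residual degrees of freedom) is therefore given where it changes a call. At 24 h and 48 h the number coincides with the kind of table, and these cannot be told apart. At steady state it coincides in both genotypes with the list of Trav segments in the table, and these cannot be told apart either. Other alternatives were pseudocounts of 0.001 and 0.1, filters on low values, other scalings, a trend in the moderation, terms for the kind of table and leaving out libraries. The limma fit with 1 mean per group and the genotype permutation were tested on simulated data with known changes, for KO minus WT over samplings. The fits with a block or another term and the time contrasts were not tested in this way.

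Named pairs were, per contrast, up to 10 called ones by adjusted p and the 3 largest of each member; other name-matched pairs appear as counts, medians and the 2 most extreme. Both member pairs that rose between steady state and 24 h in WT were named after their values were seen. The members, lists and tests were chosen with earlier results of these data known. Coordinates and V exons are from GENCODE M21 (GRCm38); 77 of the 79 segments matched by name.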

Additional observations from a re-analysis of the deposited data

Results flagged for a closer look

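The share of Trav8-1 moved in opposite directions between samplings when same-numbered KO and WT libraries were compared. It was higher in KO by 0.156 percentage points at steady state in both pairs, and the difference was -0.181 at 24 h and -0.0241 at 48 h, negative in both pairs each time. This difference between samplings was not tested in percentage points, and on the log2 scale the change of the KO effect between samplings did not pass (adjusted p = 0.416 for 24 h against steady state with the block, limma).

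The ratio of the Trav8d-1 share to the Trav8-1 share was lower in KO at steady state by -0.128 and at 48 h by -0.0537, and higher at 24 h by 0.0862, in both same-numbered pairs each time. The difference was not tested on this linear scale; on the log2 scale, 24 h against steady state gave an adjusted p of 0.0731 with the block (limma).

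The partner gap of Trav8d-2 and Trav8-2 opened less in KO than in WT between 24 h and 48 h. The difference of the changes was 5.09 Traj numbers (SE 1.91, adjusted p = 0.0842 without the block; SE 1.55, adjusted p = 0.0477 with it, limma over 33 pairs).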

How the results depend on the processing

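The partner gap of the second pair kept its direction and its call under every alternative run, over all groups and for the genotype difference averaged over samplings. Its steady-state genotype difference did not: the adjusted p of 0.0505 ran from 0.00614 without the 4 tables summing to nearly 2 to 0.218 without WT replicate 2. Averaged over samplings, the KO minus WT partner differences of Trav8d-1, Trav8d-2 and Trav8-1 kept their direction and call under every alternative run. The KO minus WT permutation tests of single values passed after adjustment under none. Over all libraries, the family's mean partner number had the smallest p that test can give (0.00926), which was 0.0926 after adjustment. The adjusted test could not decide for this measure. The summed share of both counterparts ranged from 0.0601 to 0.675 percentage points when 1 library was left out. The row-list term and the omission of the 4 tables were chosen after seeing the data.

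Values that changed side were as follows. The Trav8-2 share difference of 0.40 passed with the replicate block within sampling (0.40), the term for the kind of table (0.40), that for the 3 kinds of row list (0.40) and without the 4 tables summing to nearly 2 (0.45). The log2 ratio difference of the second pair passed with the same 3 terms (-0.46 each) and without the 4 tables (-0.61). Without these tables the gap of the first pair over all groups was 1.14, the Trav8-2 partner difference 2.01 and its 48 h difference 1.92, opposite to the -0.66 over all libraries. With the row-list term the Trav8-2 change from 24 h to 48 h in WT was 0.049, against -0.17 in the fit reported. On centred log2 shares the differences of Trav8-1 and Trav8d-2 turned to 0.00613 and 0.0107. The plain replicate block, with the number shared by all samplings, changed no call averaged over samplings and gave 14 member pairs between 24 h and 48 h in WT.

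Counts of called member pairs depended most on the processing. Between steady state and 24 h in WT the 21 became 104 without the 4 tables, 1 with a pseudocount of 0.001, 56 with the block within sampling and 43 with the table term. Between 24 h and 48 h the 7 became 95, 0 and 35 with the same first 3 changes, 35 with the table term, 32 with the row-list term, 0 with a trend, 4 with the filter on low values and 11 with a pseudocount of 0.1. Without the 4 tables the spread rests on the steady-state libraries alone.

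Leaving out 1 library moved the log2 share difference of Trav8-1 from -0.31 to 0.18, of Trav8d-1 from -0.55 to 0.35 and of Trav8d-2 from -0.29 to 0.17, and the family share difference from -0.00113 to 0.551 percentage points. The Trav8-2 partner difference ran from 0.579 to 2.21, its 48 h difference from -3.10 to 1.79 and its WT change from 24 h to 48 h from -2.62 to 2.27. Called pairs ran from 0 to 38 between steady state and 24 h and from 0 to 18 between 24 h and 48 h. A lone library left in a group is assumed to vary like the other groups. Shares below the smallest value of a table cannot be told from 0, which weighs most on Trav8d-1 in the 4 tables. The cause of these changes was not tested.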
